A study of Rattus norvegicus with 12 samples.

Results

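Mast cell genes were followed in wound tissue of diabetic rats through 10 symbols, namely Cpa3, Cma1, Mcpt1, Mcpt2, Mcpt10, Tpsb2, Tpsab1, Kit, Ms4a2, and Hdc. The members were chosen by symbol, and 9 of the 10 had a row in the expression tables, out of 25620 genes. Mcpt1 was not analysed here under its own symbol. The study asked how dressings made from snail mucus act on chronic wounds. All animals were male SD rats made diabetic with streptozotocin (STZ), and each carried a full-thickness skin wound on the back. The wounds were left with saline (control), covered with d-SMG, the dried mucus gel of the snail Achatina fulica, treated with s-GAG, the sulfated glycosaminoglycan isolated from that gel (GAG in the sample labels), or covered with Alg, a commercial alginate dressing. RNA was sequenced from skin of the wound on day 3, 7, and 14, with 1 library for each of the 4 treatments on each day, 12 libraries in all. STZ-induced diabetes is a model that lacks some features of human diabetic ulcers. How many animals contributed to a library was not given in the sources used here.

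Mast cells are granulated immune cells that settle in the dermis from blood-borne progenitors, and they depend on stem cell factor acting on the receptor Kit. Their granules store histamine and proteases, mainly chymases, tryptases, and carboxypeptidase A3, bound to heparin-like glycosaminoglycan. Cross-linking of IgE on the high-affinity IgE receptor releases the granules, and in skin wounds mast cells are known for early release of mediators that act on vessels and other leukocytes.

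The promoters of the granule protease genes are shown because their levels are the core of the data below. Promoter sequences of 7 of the 10 members were found in the RefSeq table (GRCr8), and the 250 bases before the annotated start were searched on both strands for the GATA motif, bound by the lineage factors Gata1 and Gata2, in the forms AGATAA or AGATAG, and likewise TGATAA or TGATAG. The GATA motif was present in 3 of the 7, namely Cpa3, Cma1, and Mcpt1, and in 27.0% of the 33469 RefSeq promoters. It was also present in Mcpt1l1, the gene of a close relative of Mcpt1. The E-box forms CACATG and CACGTG, bound by Mitf among others, were in 2 of the 7 and in 17.1% of all promoters. No form of either motif contains a form of the other, and a match is a description of the sequence and not a binding site. The 4 promoters with a GATA motif follow, 5′ to 3′, with the motif in capitals, for Cpa3 (chr2:104673238-104673487, minus strand), Cma1 (chr15:33390134-33390383, minus strand), Mcpt1 (chr15:33841356-33841605, plus strand), and Mcpt1l1 (chr15:33876896-33877145, minus strand).
Cpa3: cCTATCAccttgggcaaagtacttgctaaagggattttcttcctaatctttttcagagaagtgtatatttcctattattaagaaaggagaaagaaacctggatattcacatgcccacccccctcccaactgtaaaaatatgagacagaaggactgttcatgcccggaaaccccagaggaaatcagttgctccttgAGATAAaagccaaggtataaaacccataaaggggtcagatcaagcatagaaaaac
Cma1: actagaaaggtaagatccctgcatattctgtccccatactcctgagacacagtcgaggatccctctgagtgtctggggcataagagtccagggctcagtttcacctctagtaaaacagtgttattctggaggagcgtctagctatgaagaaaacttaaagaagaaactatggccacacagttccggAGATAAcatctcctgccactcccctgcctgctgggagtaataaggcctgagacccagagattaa
Mcpt1: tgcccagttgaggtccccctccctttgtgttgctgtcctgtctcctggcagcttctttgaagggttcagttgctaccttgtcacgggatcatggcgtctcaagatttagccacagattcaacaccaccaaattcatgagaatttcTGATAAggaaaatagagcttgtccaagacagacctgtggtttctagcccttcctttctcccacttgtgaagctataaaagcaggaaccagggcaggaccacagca
Mcpt1l1: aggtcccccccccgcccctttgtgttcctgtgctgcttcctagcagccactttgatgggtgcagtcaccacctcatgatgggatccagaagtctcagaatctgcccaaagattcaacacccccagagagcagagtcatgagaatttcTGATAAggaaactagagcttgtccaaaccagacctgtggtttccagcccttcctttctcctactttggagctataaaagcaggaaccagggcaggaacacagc
The motif nearest to the start lay 55 bases before it in Cpa3, 64 in Cma1, 105 in Mcpt1, and 103 in Mcpt1l1. Cpa3 held another match on the reverse strand, at the far end of the stretch. The Mcpt1 and Mcpt1l1 promoters were identical at 76.7% of aligned positions, whereas those of Cpa3 and Cma1 were identical at 44.8% and those of the 2 tryptases at 53.0%.

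The libraries held 13748887 to 38302461 reads on genes, and 3 reads correspond to 0.0773 to 0.241 CPM (read counts scaled to library size with the TMM factors of edgeR). The d-SMG library of day 3 stood apart. Its 8 measured keratinocyte markers summed to 52.6 CPM, against 4508 to 31270 in the other 11 libraries, and its 10 skeletal muscle markers summed to 201600 CPM, against 4497 to 135500. No marker of either list was at 0. Its fibroblast markers summed to 5896 CPM against 7753 to 43770, its neutrophil markers to 12.5 against 31.7 to 165, and its macrophage, endothelial, basophil, adipocyte, and T and NK cell markers lay within the range of the others. The part of this composition in the mast cell values was not tested. In tissue, fewer mast cells and less RNA per cell cannot be told apart.

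Cpa3 encodes carboxypeptidase A3, an exopeptidase of mast cell granules, and was the member with the widest range. On day 3, 7, and 14 it measured 1.73, 1.90, and 10.06 FPKM (fragments scaled by gene length and library size) in the control. The values were 0.11, 3.86, and 3.09 FPKM with d-SMG and 7.65, 3.32, and 0.82 FPKM with s-GAG. With Alg it measured 3.89, 3.94, and 9.42 FPKM. Control and Alg wounds were thus highest on day 14, s-GAG was highest on day 3 and low on day 14, and the highest and the lowest library differed 70.2-fold in CPM.

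Cma1 encodes a chymase, a serine protease of the granules, and was the most abundant member per length, with a median of 9.63 FPKM. Its control values were 4.17, 6.91, and 13.6 FPKM on day 3, 7, and 14. With d-SMG they were 0.45, 9.59, and 7.21 FPKM, and with s-GAG 14.4, 9.66, and 7.73 FPKM. The Alg libraries held 15.3, 10.8, and 15.3 FPKM, above the control on day 3 and 7 and within counting error of it on day 14. Cma1 was the highest member in 11 of 12 libraries, and in d-SMG on day 3 that place went to Hdc.

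Tpsb2 and Tpsab1 encode tryptases, trypsin-like proteases that form tetramers on heparin, and they are close paralogs, so that reads may be split between them. Tpsb2 measured 0.79, 0.91, and 4.68 FPKM in the control and 0.20, 3.70, and 0.36 FPKM with d-SMG. With s-GAG it measured 2.71, 4.20, and 1.57 FPKM, and with Alg 2.69, 1.75, and 2.70 FPKM. The d-SMG wounds therefore had high Tpsb2 on day 7 only, between low values on day 3 and 14. Tpsab1 was lower throughout, from 0.05 FPKM in d-SMG on day 3 to 1.24 FPKM in d-SMG on day 7, and rested on 1 to 37 reads per library.

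The remaining proteases were near the limit of detection. Mcpt2, a chymase typical of mucosal mast cells, had 16 reads (1.12 FPKM) in d-SMG on day 7 and 0 in the other 11 libraries. Mcpt8, a protease of basophils, also had its highest count there, with 18 reads (a gene outside the members, noted after its values were seen). Mcpt10 had 29 reads in all, was at 0 in 4 libraries, and reached 7 reads in d-SMG on day 14. A count of 0 allows up to 3 reads, which covers counting error only.

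Mcpt1l1 lies in the same cluster of protease genes on chromosome 15 as Cma1, Mcpt2, and Mcpt10, and RefSeq lists Mcpt1 among its synonyms. Among the members and the listed proteases it was the most abundant, at 27.8, 33.0, and 113 FPKM in the control on day 3, 7, and 14. It measured 1.82, 54.6, and 48.3 FPKM with d-SMG and 78.8, 50.6, and 18.7 FPKM with s-GAG. The Alg libraries held 60.7, 50.7, and 103 FPKM. Its order over libraries was close to that of Cpa3, at 10.3 to 22.9 times its FPKM. The cluster spans 27 RefSeq genes from Cma1 to Ctsg, with 11 protein-coding Mcpt genes, of which 5 had a row, so reads from near-identical copies may be counted under another name.

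Kit, the receptor for stem cell factor, measured 1.45, 2.14, and 2.45 FPKM in the control and 0.43, 3.47, and 3.45 FPKM with d-SMG. With s-GAG it measured 3.13, 3.43, and 0.65 FPKM, and with Alg 2.41, 2.27, and 3.12 FPKM. The low values were d-SMG on day 3 and s-GAG on day 14. Melanocytes also express Kit, and their 6 markers summed to 1.37 CPM in d-SMG on day 3 and to 214 CPM in s-GAG on day 14, the highest of all libraries, where Kit was low.

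Ms4a2, the β chain of the high-affinity IgE receptor, was the steadiest member apart from d-SMG on day 3 (0.80 FPKM). Its control values were 3.33, 3.84, and 6.54 FPKM. It measured 5.77 and 5.42 FPKM with d-SMG on day 7 and 14, and 7.25, 7.56, and 4.97 FPKM with s-GAG. The Alg libraries held 7.99, 8.03, and 7.14 FPKM, above the control on day 3 and 7, whereas on day 14 the 2 libraries had the same CPM within counting error. Basophils also carry this receptor, and 4 of their 5 listed markers were measured, summing to 11.7 to 32.0 CPM. Il3ra, a receptor that other cells also express, gave nearly all of this (11.2 to 31.4 CPM), and Mcpt8, Ccr3, and Prss34 had 40, 37, and 2 reads over all libraries and 0 in d-SMG on day 3, against 5254 reads for Ms4a2.

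Hdc, histidine decarboxylase, makes histamine and is also expressed by other myeloid cells. It measured 2.28, 1.95, and 0.96 FPKM in the control and 2.27, 6.60, and 6.01 FPKM with d-SMG. With s-GAG it measured 1.80, 1.85, and 2.55 FPKM, and with Alg 9.32, 3.33, and 5.93 FPKM. Its lowest library was the control of day 14, where Cpa3 and Tpsb2 were highest. By median FPKM the members ranked Cma1 (9.63), Ms4a2 (6.16), Cpa3 (3.59), Kit (2.43), Hdc (2.42), Tpsb2 (2.22), Tpsab1 (0.51), Mcpt10 (0.11), and Mcpt2 (0), and the ranges of neighbouring members overlapped.

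**Figure D1:**
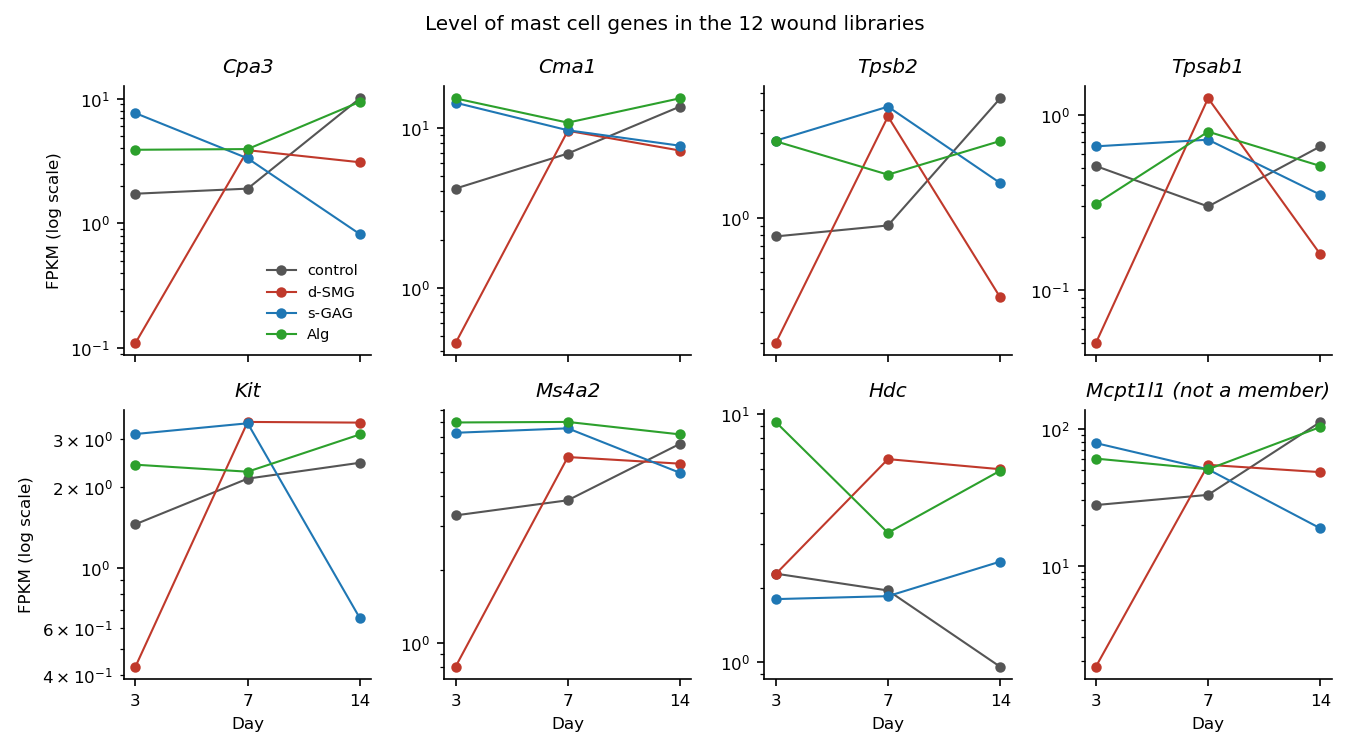
Level of 7 mast cell genes and of Mcpt1l1 (vertical axis, FPKM, log scale) by day (horizontal axis), 1 point per library and 1 line per treatment. The d-SMG library of day 3 is the lowest point in 6 members, and Hdc does not follow the other members.

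Dressed and control wounds were compared on each day as ratios of TMM-scaled counts, with exact Clopper-Pearson 95% intervals of the counting error. Each group had 1 library on a day, which leaves these ratios without replicates and without a test, and the dressings share the control library of each day. Genes with at least 10 reads in the pair were compared, and a difference of at least 2-fold was counted. Shares of all genes past this limit are given beside each count.

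In d-SMG wounds on day 3, 6 of 7 members were at least 2-fold lower (14.3% of all genes were) and 0 were higher (9.47% of all genes), with a median log2 ratio of −1.62 against −0.03 over all genes. Cpa3 had 3 reads against 69, a log2 ratio of −3.59 (−5.90 to −1.98). Cma1 had 8 reads against 105 (−2.78, −4.03 to −1.74), and Ms4a2 had 52 against 306 (−1.62, −2.07 to −1.19). The protease, the chymase, and the receptor subunit were all below the control, and Mcpt1l1 was at −3.50 (−4.04 to −3.0). Kit was at −1.32, and Tpsb2 rested on 4 reads against 22, with an interval that held 0 (−3.52 to 0.04). Hdc did not follow, at 0.42 (0.03 to 0.81) with 96 reads against 137, and at −0.00 when scaled by library size only. The summed FPKM of the members was 4.31 in this library, against 14.3 to 44.3 in the others, and the muscle-rich, keratinocyte-poor composition given above belongs to the same library.

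In d-SMG wounds on day 7, 3 of the 7 members tested on every day were at least 2-fold higher (6.92% of all genes) and 0 were lower (6.38%), with a median of 0.69. Tpsb2 had 77 reads against 16, a log2 ratio of 1.70 (0.91 to 2.58), and Tpsab1 had 29 against 6 (1.70, 0.41 to 3.26). Hdc was at 1.43 (1.06 to 1.82). Mcpt2 had 16 reads against 0, which is 3.60-fold higher when the control is set to 3 reads (log2 ratio 1.85, lower limit 1.38). It passed the read minimum only through the library where it was high, so it is not in this count (4 of 8 with it). Cma1 was within its counting error of the control, at 0.14 (−0.21 to 0.50).

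In d-SMG wounds on day 14 the members split, with 4 of 7 lower (16.1% of all genes) and 1 higher (12.6%). Tpsb2 had 6 reads against 113 (−3.87, −5.35 to −2.70), Tpsab1 3 against 18 (−2.22, −4.62 to −0.44), Cpa3 was at −1.86 (−2.25 to −1.50), and Cma1 at −1.08 (−1.41 to −0.75), or −0.89 by library size, within 2-fold. These granule proteases were thus below a control in which Cpa3 and Tpsb2 were at their highest. Hdc was higher, at 2.48 (2.04 to 2.96), and Mcpt10, with 7 reads against 4 and left out of this count, had an interval that held 0 (1.17, −0.80 to 3.39). Kit (0.34) and Ms4a2 (−0.43) were within 2-fold.

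In s-GAG wounds on day 3, 4 of 7 members were higher (14.6% of all genes) and 0 lower (11.0%), with a median of 1.0. Cpa3 had 206 reads against 69 (2.03, 1.63 to 2.44), Cma1 was at 1.67 (1.33 to 2.01), Tpsb2 at 1.66 (0.91 to 2.45), and Ms4a2 at 1.0 (0.79 to 1.22). Kit, at 0.99, was just short of the 2-fold limit. On day 7, 2 of 7 were higher (13.0%) and 0 lower (12.5%), namely Tpsb2 at 2.18 (1.44 to 3.02) and Tpsab1 at 1.22, whose interval held 0 (−0.04 to 2.76). On day 14, 3 of 7 were lower (30.1%) and 1 higher (27.8%), shares that must be read against a comparison in which many genes differed. Cpa3 had 27 reads against 347 (−3.20, −3.83 to −2.64), Kit 72 against 287 (−1.51, −1.91 to −1.14), and Tpsb2 36 against 113 (−1.17, −1.75 to −0.62). Ms4a2 did not share this difference, at 0.01 (−0.18 to 0.21), and Hdc was higher, at 1.82 (1.33 to 2.32).

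In Alg wounds, 5 of 7 members were higher on day 3 (11.5% of all genes) and 0 lower (8.73%), with a median of 1.18. These were Hdc at 1.95 (1.67 to 2.24), Cma1 at 1.79 (1.47 to 2.13), Tpsb2 at 1.69 (0.97 to 2.47), Ms4a2 at 1.18 (0.98 to 1.39), and Cpa3 at 1.09 (0.66 to 1.54). On day 7, 4 of 7 were higher (12.5%) and 0 lower (11.9%), with Ms4a2 at 1.15 (0.92 to 1.38), Cpa3 at 1.13 (0.63 to 1.66), Tpsb2 at 1.03 (0.13 to 1.99), and Tpsab1 at 1.49 (0.08 to 3.12). On day 14, 1 of 7 was higher (9.10%) and 0 were lower (12.2%). That member was Hdc at 2.50 (2.05 to 2.97). Tpsb2 was at −0.92 (−1.44 to −0.41), within 2-fold, whereas Cpa3, Cma1, Tpsab1, Kit, and Ms4a2 had intervals that held 0.

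**Figure D2:**
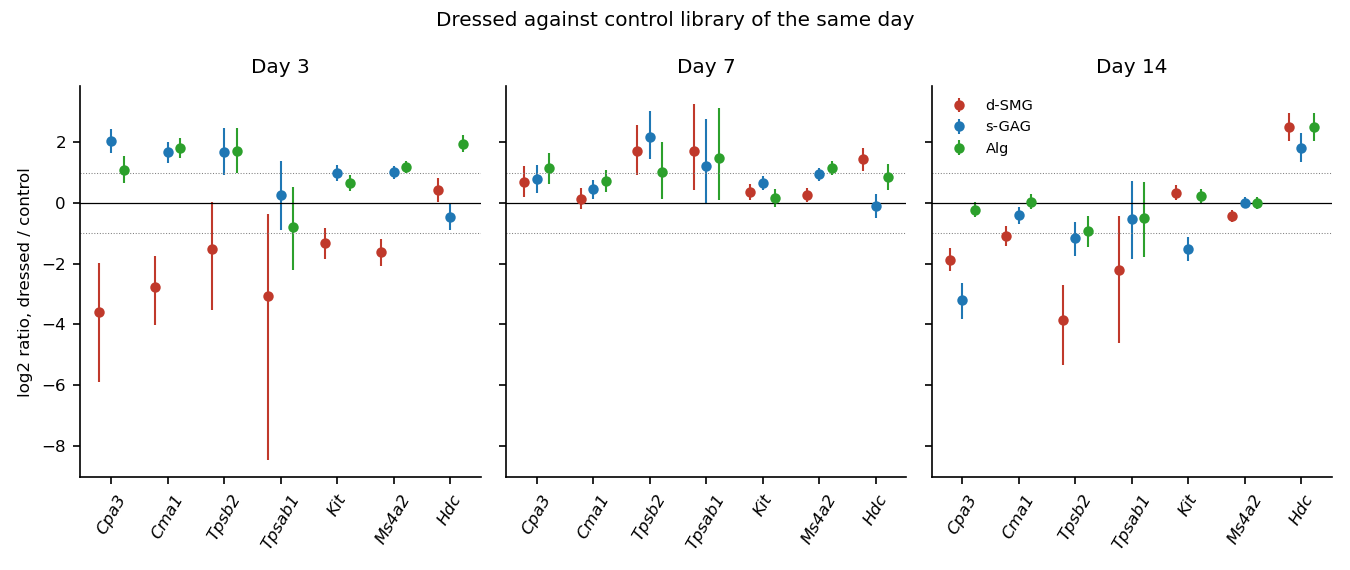
Log2 ratio of the dressed to the control library of the same day (vertical axis, TMM-scaled counts) for 7 members (horizontal axis), in 1 panel per day. Bars are 95% counting intervals and dotted lines mark 2-fold; the d-SMG points lie below 0 in 6 members on day 3, and Hdc is above 2-fold with each dressing on day 14.

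Over the 9 comparisons, 36 of 65 member values were past 2-fold, 23 higher (13.1% of the values of all genes) and 13 lower (13.7%), and 3 of the 36 had an interval that held 0. Without Mcpt2 and Mcpt10, 34 of 63 were. Tpsab1 on day 7 and Hdc on day 14 were at least 2-fold higher with every dressing, against a shared control count of 6 and 50 reads. Tpsb2 on day 7, against 16 reads, was so with d-SMG and s-GAG, and with Alg it was at 1.03, or 0.98 by library size. On day 3, Cpa3, Cma1, Tpsb2, and Ms4a2 were lower with d-SMG and higher with s-GAG and Alg.

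The treatments were also compared over the 3 days, with the days as replicates of a treatment, in an edgeR quasi-likelihood fit on treatment plus day. Of 16110 genes tested, 0 (0%) were called in each of the 3 treatment and 3 day contrasts at an FDR of 0.05, and 0 of the 7 members tested were. At an unadjusted p under 0.05 there were 218 genes for d-SMG, 1492 for s-GAG, and 502 for Alg, and 292, 798, and 502 for day 7 against 3, day 14 against 3, and day 14 against 7. DESeq2 called 9, 288, and 88 genes for the treatments and 0, 39, and 7 for the days, with 0 members in each.

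For d-SMG and Alg, Hdc had the largest estimates of the members, and was the member with an unadjusted p under 0.05 for d-SMG and for Alg. It was 1.41 ± 0.51 (log2, SE) above the control with d-SMG (edgeR adjusted p = 1) and 1.74 ± 0.51 above it with Alg (edgeR adjusted p = 1), higher on 3 of 3 days with each, d-SMG on day 3 being no higher by library size. With s-GAG it was at 0.38 ± 0.51 (edgeR adjusted p = 0.776). Without the d-SMG library of day 3, the Hdc estimate for d-SMG was 1.80 (edgeR adjusted p = 0.704).

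The granule proteases did not pass the test in either direction. For d-SMG, Cpa3 was at −1.02 ± 1.04, and Cma1 at −0.79 ± 0.69, with the edgeR adjusted p at 1 for both. Without the d-SMG library of day 3 these estimates were −0.34 and −0.14. The member median for d-SMG was −0.75, with 5 of 7 below 0, against −0.03 over all genes, and without that library it was −0.14, with 4 of 7 below 0. For s-GAG 7 of 7 were above 0 (median 0.38), and for Alg 6 of 7 (median 0.47).

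By day, Cpa3 was 1.13 ± 0.97 higher on day 14 than on day 3 (edgeR adjusted p = 0.906), Cma1 0.83 ± 0.61 (edgeR adjusted p = 0.891), and Ms4a2 0.66 ± 0.40 (edgeR adjusted p = 0.882). Of the members, 6 of 7 were above 0 in that contrast, and 4 of 7 without the d-SMG library of day 3. Without that library the estimates were 0.51 for Cpa3, 0.31 for Cma1, and 0.27 for Ms4a2 (edgeR adjusted p = 1 for each). None of these differences was larger than the spread between libraries by this test.

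**Figure D3:**
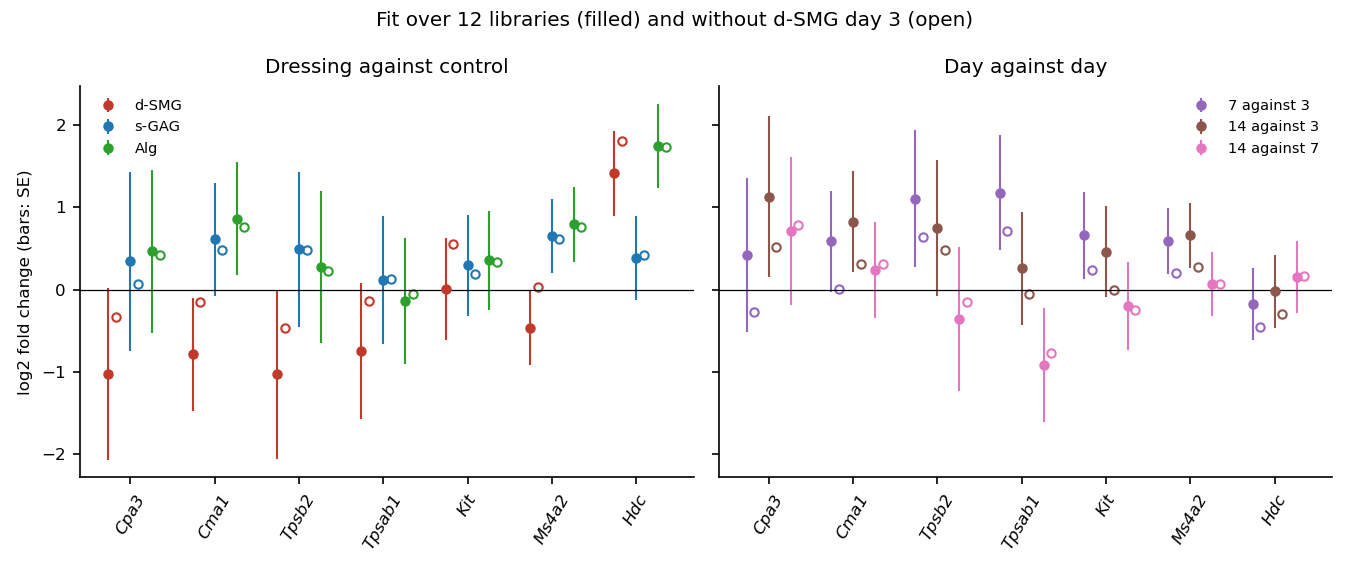
Log2 fold change of 7 members in the fit over 12 libraries (filled points, bars are SE) and without the d-SMG library of day 3 (open points), for each dressing against control (left) and day against day (right). Most bars cross 0, and the d-SMG estimates of Cpa3, Cma1, and Tpsb2 lie nearer to 0 without that library.

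Members were set beside Cpa3 over the 12 libraries on log2(CPM + 1), with 6 relations in the family and permutation p-values (two-sided) adjusted by Benjamini-Hochberg. Pearson's r was 0.836 for Cma1 (permutation p = 0.00078, adjusted 0.00234, rho = 0.811), 0.805 for Kit (permutation p = 0.00131, adjusted 0.00262, rho = 0.587), and 0.751 for Ms4a2 (permutation p = 0.00633, adjusted 0.00949, rho = 0.566). Tpsb2 was at 0.689 (permutation p = 0.0120, adjusted 0.0145, rho = 0.671). The adjusted permutation p of rho was 0.00702 for Cma1, 0.0405 for Tpsb2, and 0.0698 for Kit and for Ms4a2. Without control on day 14 and d-SMG on day 3, the libraries farthest from the median of Cpa3, r was 0.645, 0.708, 0.471, and 0.397 for Cma1, Kit, Ms4a2, and Tpsb2, so the last 2 rest largely on those libraries. Hdc showed no such relation, at r = −0.128 (permutation p = 0.692, adjusted 0.692, rho = −0.07, whose permutation p was 0.834 and adjusted 0.834). Mcpt1l1 followed Cpa3 most closely, at r = 0.945 and rho = 0.993 (permutation p = 1e-05 for each, the smallest that 100000 permutations can give, adjusted 6e-05), and at r = 0.985 without those libraries. Among the members r was highest between Cma1 and Ms4a2, at 0.961. The labels give no batch, and a day holds 4 libraries, too few for a value within days.

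**Figure D4:**
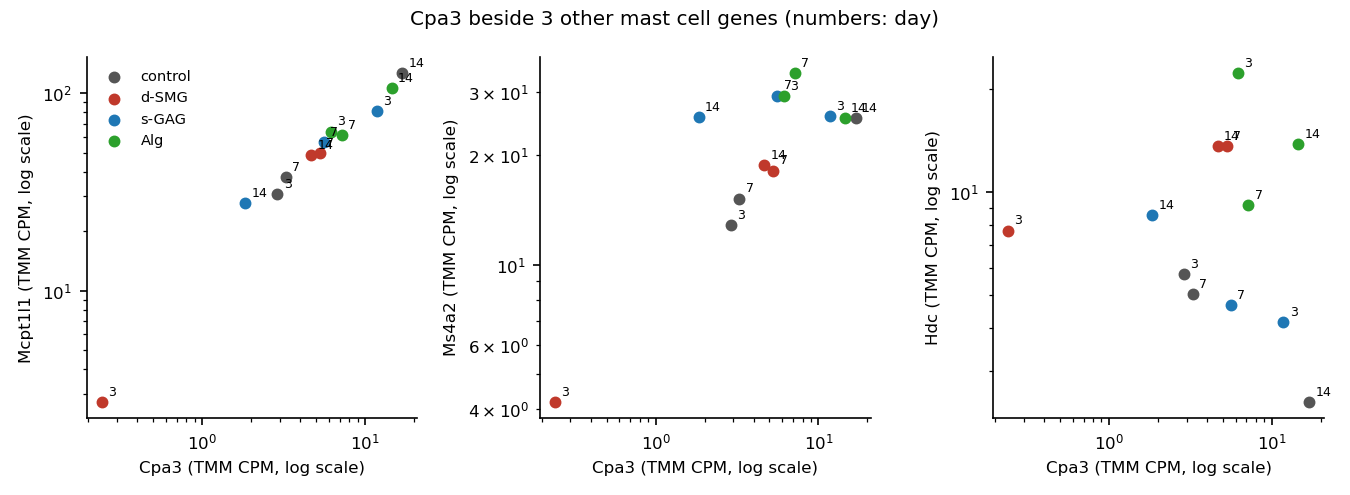
Mcpt1l1, Ms4a2, and Hdc (vertical axes, TMM CPM, log scale) against Cpa3 (horizontal axis, TMM CPM, log scale) in 12 libraries, with the color giving the treatment and the number the day. Mcpt1l1 lies along a line with Cpa3 (r = 0.945), and Hdc is scattered (r = −0.128).

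The genes with the pattern most like the mean of the 6 members with at least 1 CPM on average, out of 13078 genes ranked, were Dsg1 (r = 0.944 over 12 libraries), Mcpt1l1 (0.944), Evpl (0.937), Dsp (0.937), Tenm4 (0.921), Sema5a (0.920), Exph5 (0.919), Acvr1c (0.913), Ehf (0.910), and Mpzl2 (0.909). Dsg1, Dsp, and Evpl encode desmoglein 1, desmoplakin, and envoplakin, parts of the junctions and envelope of keratinocytes, and Dsg1 and Dsp are keratinocyte markers in the list used above. Without the d-SMG library of day 3, r was 0.837, 0.813, and 0.860 for these 3 genes, 0.840 for Mcpt1l1, and 0.902 for Acvr1c. It was 0.834 for Exph5, 0.779 for Tenm4, 0.773 for Sema5a, 0.730 for Ehf, and 0.723 for Mpzl2.

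Other genes of the mast cell program were taken from 5 lists. In the fits over days edgeR called 0 members of every list in every contrast, and DESeq2 called 1, Il33 for s-GAG. In the list of other proteases and granule genes, 6 of 11 measured genes were tested. For day 14 against day 3, 1 gene had an unadjusted edgeR p under 0.05 (4.95% of all genes had). This was Gzmc, a granzyme of cytotoxic cells, at 3.39 ± 1.03 (edgeR adjusted p = 0.882). Mcpt1l1 was at 1.06 ± 0.81 (edgeR adjusted p = 0.893). The list median was 0.23, against 0.01 over all genes.

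The list of the high-affinity IgE receptor and its signalling (12 of 14 tested) holds kinases and adaptors that macrophages and lymphocytes also express. For s-GAG it had 4 genes with an unadjusted edgeR p under 0.05 (9.26% of all genes had). Its median was −0.996, against 0.00 over all genes. On single days, 10 of 13 were at least 2-fold lower with s-GAG on day 14 (30.1% of all genes were). With Alg on day 7, 9 of 12 were (11.9%). Ms4a2, the β chain of the receptor, was at 0.01 and 1.15 in these comparisons. Fcer1g, another receptor gene and part of the list, was at 14.0 CPM against 34.4 in the control with s-GAG on day 14. With Alg on day 7 it was at 13.9 CPM against 37.8. The macrophage markers summed to 276 CPM in s-GAG on day 14, the lowest of all libraries, and to 345 CPM in Alg on day 7. The part of cell composition in the values of this list was not tested. For day 14 against day 3 Lat, an adaptor, was at 0.62 ± 0.48 and Gab2, another adaptor, at −0.53 ± 0.62 (edgeR adjusted p = 0.896 and 0.936).

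In the list of lineage factors and growth signals (12 of 14 tested), Il33, an alarmin of epithelial and stromal cells that acts on mast cells, was at −2.04 ± 0.56 for s-GAG by edgeR (adjusted p = 0.417) and at −2.03 by DESeq2 (adjusted p = 0.0263). For day 14 against day 3 it was at −0.81 ± 0.48, and Il9r, the interleukin 9 receptor, at 1.33 ± 0.77 (edgeR adjusted p = 0.882 for both). In the list of histamine, serotonin, and eicosanoids (10 of 11 tested), Ltc4s, which makes leukotriene C4, was at 1.71 ± 1.01 in that contrast. Hpgds, which makes prostaglandin D2, was at 1.42 ± 0.66 (edgeR adjusted p = 0.882 for both). The 1 gene with an unadjusted edgeR p under 0.05 there (4.95% of all genes had) was lower, Ptgs1 at −1.07 ± 0.36 (edgeR adjusted p = 0.882). For s-GAG, 2 of the 10 had such a p (9.26% of all genes), and for Alg 1 (3.12%).

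On single days Hpgds was at −2.07 (−2.73 to −1.47) in d-SMG on day 3, 1.46 (1.22 to 1.71) in s-GAG on day 3, and −2.02 (−2.28 to −1.78) in s-GAG on day 14. In the other 6 comparisons it lay between −0.91 and 1.08. Hpgds is the only gene of its list given by day. With d-SMG on day 3, 4 of 9 tested genes of the list were at least 2-fold lower (14.3% of all genes) and 1 higher (9.47%). With s-GAG on day 3, 2 of 10 were lower (11.0%) and 6 higher (14.6%). With s-GAG on day 14, 5 of 9 were lower (30.1%) and 2 higher (27.8%). Of the listed MRGPR receptors (2 of 3 tested), Mrgprx2 was at −0.84 ± 0.58 and Mrgprx3 at 0.24 ± 0.70 for day 14 against day 3 (edgeR adjusted p = 0.884 and 0.979). Mrgprb3, of the same family but outside this list, had 619 reads in all. It ranged from 0.322 CPM in d-SMG on day 3 to 5.42 CPM in control on day 14. Mrgprx2 was at 5.71 CPM in d-SMG on day 3 against 4.03 in the control of that day, and Mrgprx3 had 2 reads against 41.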

How the data were processed

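Stranded, rRNA-depleted RNA sequencing of 12 wound libraries was used. The authors deposited whole-number read counts per gene, not normalized, and FPKM, scaled by gene length and library total. The submitters' processing notes name bcl2fastq, FastQC, TopHat2, and edgeR. The counting tool, its strand setting, and the genome build are not given in the sources used here, so the coordinates printed are only those of the promoters in the RefSeq table of GRCr8, which may not be the build of the files. Near-identical copies may share reads. In each of the tables, 1 value column matched no labelled sample and was not used.

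Groups were read from the treatment labels. By the methods the rats were divided into groups for treatment, so the treatments were on different animals. The methods give 1 wound per rat, whereas the paper's legend for the healing ratio names more than 1. No group has a second library on a day, so p-values set a difference against the spread over days or treatments. In it biological and technical spread cannot be told apart. The fit has no term for a dressing whose difference from control changes with the day, so such changes enter this spread. A contrast without calls is therefore not evidence that a dressing has no effect. Counts were fitted with edgeR 4.0.16 (R 4.3.3), TMM and filterByExpr, by the quasi-likelihood test over all genes, with Benjamini-Hochberg adjustment at an FDR of 0.05. Day served as the block of the treatment contrasts because the labels give it. DESeq2 1.42.0 and limma 3.58.1 (limma-trend on log2(FPKM + 1) and log2(FPKM + 0.1)), other scalings, other filters, and leaving out libraries were alternatives. The fit was also run on simulated counts with added changes that were equal over days or over treatments. Its outcome is not given here and is not used as support. Ratios of single libraries used genes with at least 10 reads in both together. Python 3.11.15, scipy 1.17.1, and Biopython 1.88 were used for permutations (100000) and alignments.

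Named genes were the members, in each list the genes called, or otherwise the 2 with the largest change for day 14 against day 3, and the 10 genes closest to the member profile (symbols starting with LOC or RGD left out). Fcer1g, Ptgs1, and Mrgprb3 were named, and Hpgds was given by day, after their values were seen. The members and lists were chosen with earlier results of these data known.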

Additional observations from a re-analysis of the deposited data

Results flagged for a closer look

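Several members were at least 2-fold below the control on 1 day and at least 2-fold above it on another under the same dressing, and these differences were not tested, since each rests on single libraries. In d-SMG wounds, the log2 ratio of Tpsb2 to the control differed by 3.22 between day 3 (lower) and day 7 (higher) and by 5.57 between day 14 (lower) and day 7. That of Tpsab1 differed by 4.77 between day 3 and day 7 and by 3.92 between day 14 and day 7, on 1, 29, and 3 reads in the d-SMG libraries of day 3, 7, and 14. In s-GAG wounds, the ratio of Cpa3 differed by 5.23 between day 14 (lower) and day 3 (higher). The ratio of Tpsb2 with s-GAG differed by 2.83 between day 14 and day 3 and by 3.35 between day 14 and day 7. The control itself had its highest Cpa3 and Tpsb2 on day 14 (10.06 and 4.68 FPKM).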

How the results depend on the processing

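The count of member values past 2-fold, 36 of 65, was 10 with a 4-fold limit and 21 with log2 ratios of FPKM + 1, the 4-fold limit being stricter by construction. FPKM + 0.1 gave 34, RLE size factors 37, and library size only 36. In the main setting 26.8% of the values of all genes were past 2-fold. The shares of all genes in the other settings are not given here, so these counts cannot be read against them. The 36 include Mcpt2 and Mcpt10. With no replicate block, that is, without day or treatment as the second term, 0 members were called in the 6 contrasts. Over 1029 alternative values of the members in those contrasts, 0 gained a call and 90 turned sign, among values that had no call. Scaling by library size only moved all same-day log2 ratios by −0.45 (s-GAG on day 14) to 0.36 (d-SMG on day 7), and by −0.43 for d-SMG on day 3. No call past 2-fold turned direction in the alternatives run, but by library size 2 were lost (Cma1 in d-SMG on day 14 and Tpsb2 in Alg on day 7) and 2 gained (Cpa3 in d-SMG on day 7 and Kit in s-GAG on day 3). By CPM in place of FPKM, the rank of d-SMG on day 3 differed in 1 of 9 members. The depth limits Mcpt2, Mcpt10, and Tpsab1, with 16, 29, and 168 reads in all.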
